A study of Arabidopsis thaliana with 8 samples.

Results

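Small RNAs of 21 nt that map to genes were compared between es3, an Arabidopsis thaliana double mutant of cytoplasmic RNA decay, and the Col wild type, to describe which nuclear genes gain or lose them when EIN5 and SKI2 are lost. A nuclear gene was included where the mean of either genotype was at least 5 TPM, which kept 8743 of the 32420 genes in the table. A further 87 plastid-encoded and 70 mitochondrion-encoded genes passed the same minimum and serve only as a background here. The effect of a gene is log2((es3 mean + 1)/(Col mean + 1)), a scale that understates the change of genes with low values.

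Plants spent 6 days on MS medium before 14 days in soil, and their aerial parts were taken at the age of 20 days for small RNA sequencing. Genotype es3 carries ein5-1 and ski2-3 and has 4 libraries. Genotype es3dd carries the same mutations together with dcl4-2 and dcl2-1, and its 21-nt means are set beside those of es3 where they help. Col appears in the table as the authors' mean and not among the 8 labelled libraries, so its replicate spread is unknown here, and any difference in how or when its libraries were made cannot be told apart from genotype.

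EIN5, also called XRN4, degrades uncapped mRNA from the 5′ end, and SKI2 is the helicase that feeds mRNA to the exosome for decay from the 3′ end. In plants, RNA that escapes decay can be copied by RDR6 into double-stranded RNA, which DCL4 cuts into 21-nt siRNAs and DCL2 into 22-nt siRNAs. MicroRNAs, which DCL1 makes from MIR precursors, are mostly 21 nt as well, and the mRNA fragments left after a microRNA guides cleavage are natural substrates of both decay routes.

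For known microRNA target families described further on, mature microRNAs and the sites they match in the genes are shown here. Mature sequences and coordinates are from RefSeq TAIR10.1, each in the 5′ to 3′ direction with T for U. Capitals mark the seed (bases 2 to 8) in a microRNA and the bases opposite it in a site, and a mismatch is any base that is not the Watson-Crick complement. The sites of the HD-ZIP III genes span an intron, so their genomic interval is longer than the site.
ath-miR166a-3p (chr2:19176241-19176261, plus strand, shared by 7 loci): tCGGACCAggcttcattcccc
REV site (chr5:24398787-24398898, plus strand, 4 mismatches): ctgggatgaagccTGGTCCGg
PHB site (chr2:14642530-14642666, minus strand, 4 mismatches): ttgggatgaagccTGGTCCGg
ATHB15 site (chr1:19412976-19413085, minus strand, 3 mismatches): ctggaatgaagccTGGTCCGg
ATHB8 site (chr4:15866872-15866974, minus strand, 4 mismatches): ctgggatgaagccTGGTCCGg
ath-miR160a-5p (chr2:16340282-16340302, plus strand, shared by 3 loci): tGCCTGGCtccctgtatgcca
ARF10 site (chr2:12115741-12115761, plus strand, 2 mismatches): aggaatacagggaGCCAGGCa
ARF16 site (chr4:14704141-14704161, minus strand, 3 mismatches): gggtttacagggaGCCAGGCa
ARF17 site (chr1:29274189-29274209, plus strand, 1 mismatch): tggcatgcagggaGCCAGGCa
ath-miR167a-5p (chr3:8108090-8108110, plus strand, shared by 2 loci): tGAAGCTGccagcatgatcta
ARF6 site (chr1:10686478-10686498, minus strand, 4 mismatches): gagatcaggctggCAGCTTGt
ARF8 site (chr5:14633841-14633861, plus strand, 3 mismatches): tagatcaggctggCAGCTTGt
ath-miR171a-3p (chr3:19073521-19073541, plus strand): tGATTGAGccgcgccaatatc
HAM1 site (chr2:18619128-18619148, minus strand, 0 mismatches; HAM2 and HAM3 have the same letters): gatattggcgcggCTCAATCa
All of these sites lie wholly in coding sequence. The seed matched without a mismatch except in ARF6 and ARF8, with 1 mismatch each.

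Most nuclear genes that differed had more 21-nt RNAs in es3. A gene was called where the authors' deposited table gives an adjusted p below 0.05 and a log2 fold change of at least 1 in size. By this call 3371 of the 8743 genes (38.6%) were higher in es3 and 544 (6.22%) lower, against 21.2% higher and 3.89% lower among all 18061 genes with an adjusted p in the authors' deposited table. The comparison of these shares is uneven, because 4020 genes entered through the es3 mean only and had to lie higher in es3, and 884 through the Col mean only. Among the 3839 genes with both means at least 5, 698 (18.2%) were called higher and 302 (7.87%) lower, and the median effect was 0.00 against 0.80 over all 8743.

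**Figure D1:**
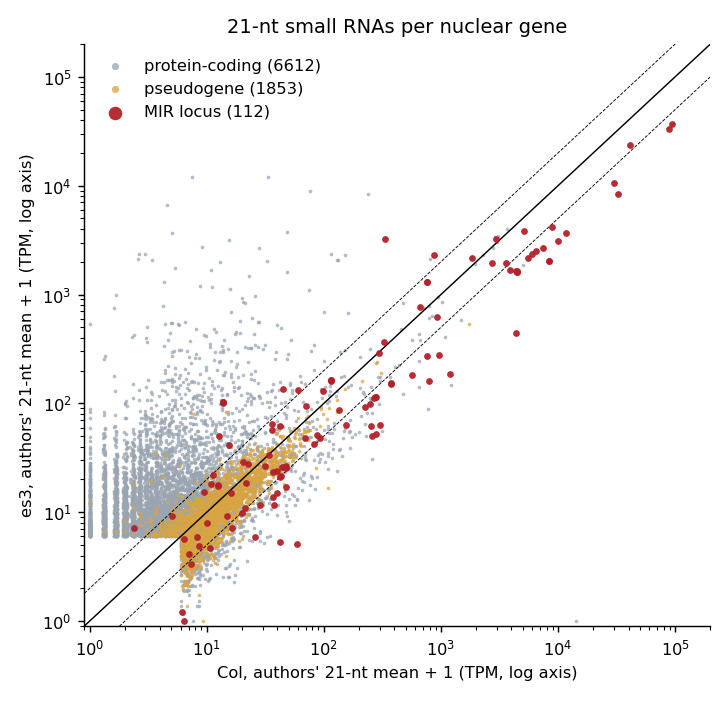
Each point is a nuclear gene, with the authors' 21-nt mean plus 1 in Col on the horizontal axis and in es3 on the vertical axis, in TPM on log axes; the solid line marks equality and the dashed lines a 2-fold difference. A cloud of protein-coding genes stands far above the line at Col means below 10, the MIR loci with the highest Col means lie mostly below it, and pseudogenes lie along it.

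The direction differed by gene class. Of 6612 protein-coding genes, 3308 (50.0%) were called higher and 337 (5.10%) lower, with a median effect of 1.38. Of the 6612, 3856 passed through the es3 mean only and had to lie higher, and they held 2638 of the 3308 calls. Among the 2254 protein-coding genes with both means at least 5, 670 (29.7%) were called higher and 184 lower. MIR loci and pseudogenes were not split in this way. Of 112 MIR loci, 10 were called higher and 49 lower, with a median effect of -0.90. Of 1853 pseudogenes, 36 were called higher and 123 lower, with a median of -0.25. The summed mean of the protein-coding genes was 113110 TPM in Col, 288149 in es3 and 49063 in es3dd, while that of the MIR loci was 416106, 174181 and 628880.

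These directions rest on the authors' scaling, whose denominator is not given in the sources used here. The nuclear median lay 0.80 above zero on that scale. Centring on it left 2606 genes at 2-fold or more higher and 2325 lower, a share of 52.8% higher, where the authors' scaling gave 4053 (46.4%) and 626 (7.16%), or 86.6% of these higher. Centring on MIR loci, a shift of 0.90, gave 5739 higher and 97 lower, or 98.3%, and brought the pseudogene median to 0.64. Centring on plastid-encoded genes, a shift of 2.28, gave 8369 and 3, and turned the MIR median to 1.38. A list of 9 housekeeping genes had a median effect of -0.00 and left the counts at 4065 and 622. The protein-coding median stayed positive under all 4, at 0.58, 2.27, 3.65 and 1.38 in that order. However, 3856 of the 6612 protein-coding genes passed through the es3 mean only and had to lie higher on the authors' scaling. The positive sign is therefore partly built in by the minimum.

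The 4 es3 libraries could be read apart from their mean for the 8655 nuclear genes with an es3 mean up to 600 TPM, and carry letters here because the values hold no replicate number. The read total behind each library, as recovered from the steps, lay between 1.219 and 1.442 times 1e6, so that 1 read is worth 0.693 to 0.820 TPM. The per-library median effects lay close together, from 0.74 to 0.80, and the median coefficient of variation was 14.9% over 1926 genes with an es3 mean of at least 20. All 4 libraries lay above the Col mean in 3324 of the 3327 recovered genes called higher, where 56.1% of all recovered nuclear genes did so. All 4 lay below it in 526 of 526 called lower, where 20.8% of all did. The calls draw on these same es3 libraries, so both counts follow largely from the calls and are no separate support. None of 5 root genes reached 5 TPM, with at most 0.687 in Col and 1.19 in es3, and all 21 nuclear photosynthesis genes did, although small RNAs are not a measure of the mRNA. The mutated genes cannot be checked in this way either, since EIN5 stood at 3.12 in Col and 3.38 ± 1.85 (SD, n = 4) in es3, and SKI2 at 0.328 and 3.53 ± 2.50 (SD, n = 4).

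The size of the gain varied widely. In the authors' deposited table, 2746 of the genes called higher had at least 4-fold more, 1019 at least 16-fold, 131 at least 64-fold and 22 at least 256-fold. The genes called higher started low, with a median of 1.87 TPM in Col, 14.7 in es3 and 1.64 in es3dd. Col was below 5 TPM at 2673 of them, which passed through the es3 mean only. It was listed at 0 at 288, whereas only 11 had 100 TPM or more in Col. Genes called higher held 75.4% of the protein-coding sum in es3 and 13.1% of that in Col. The low start and the difference between these shares follow largely from the minimum and the call, and are no separate support.

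The 10 genes described next have the largest effects among the genes called higher, so their calls follow from the choice. All but SMXL5 had a Col mean below 5 TPM. Those genes passed through the es3 mean only and had to lie higher in es3. SMXL5 (AT5G57130, chr5:23144947-23149615), which acts in phloem formation, had 6.52 TPM in Col, 11907 in es3 and 9.51 in es3dd as the authors' means. CRF2 (AT4G23750, chr4:12376122-12378032), a cytokinin response factor with a single exon, had 3.55, 6649 and 7.05. GRF5 (AT3G13960, chr3:4608076-4610497), a growth-regulating factor of leaves, had 1.63, 2354 and 1.88. In these genes both other means were far below that of es3.

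SMXL4 (AT4G29920, chr4:14632413-14636101), the closest relative of SMXL5, had 1.61 TPM in Col and 2127 in es3. NPY5 (AT4G37590, chr4:17662840-17666736), an NPH3-family gene, had 1.96 and 2363. The uncharacterized gene AT2G39870 (chr2:16643381-16645866) had 4.03 and 3674. The series' own work singled out SMXL4 and SMXL5 from such libraries, so their place here is not independent evidence.

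A pair of GH3 genes, whose enzymes join auxin to amino acids, was also among the 10. DFL1 (AT5G54510, chr5:22130964-22133688) had 2.38 TPM in Col and 2094 in es3. WES1 (AT4G27260, chr4:13653579-13656285) was listed at 0 in Col and could be read per library in es3, at 594.3, 479.4, 528.9 and 553.7 TPM. Its 4 libraries lay close together and far from the es3dd mean of 0.664. The remaining genes of the 10 were FMO (AT1G12200, chr1:4137511-4140158), a flavin-binding monooxygenase gene, at 0.668 and 985.3, and ATHB8 (AT4G32880), described below.

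In the authors' deposited table the log2 fold changes of these 10 ran from 9.79 for DFL1 to 11.08 for WES1, and their adjusted p from 3.7e-198 for SMXL5 to 5.1e-22 for ATHB8. At 22 nt, a size class scaled apart, the same 10 genes had es3 means from 153.9 to 3352 TPM and Col means of at most 26.9. Their es3dd means at 21 nt ran from 0.664 to 9.51. Under the centrings and pseudocounts tried, the lowest of these effects was 6.77, for WES1 with a pseudocount of 5.

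Enzyme genes were also among those with the highest es3 means. NIA2 (AT1G37130), the main nitrate reductase, had 32.4 TPM in Col, 12110 in es3 and 26.5 in es3dd as the authors' means. GAE6 (AT3G23820), which makes the sugar precursor of pectin, had 74.7, 8952 and 47.8. AK3 (AT3G02020), an aspartate kinase, had 235.9, 8308 and 45.8, and MS2 (AT3G03780), a methionine synthase, had 47.3, 3770 and 26.3. The values are not divided by gene length. Per kilobase of transcript, es3 had 3779 TPM at NIA2, 3479 at CRF2, 3444 at GAE6 and 3261 at SMXL5, and the other genes named so far lay at 1651 or less.

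Of 75 genes in 13 lists of microRNA targets, 50 passed the minimum, and 45 of these were called higher and 0 lower. Of the 50, 33 passed through the es3 mean only and had to lie higher in es3, so their direction is no support. Among them were all 5 HD-ZIP III, all 5 GRF, both MYB and all 4 NF-YA genes. So were 5 of 7 SPL, 3 of 4 TCP, 3 of 4 AP2-like and 3 of 5 ARF genes of miR160 and miR167. The last were 2 of 5 sulfate and phosphate genes and 1 of 4 TIR1/AFB genes. Of the 17 with both means at least 5, 15 were called higher and 0 lower, where 670 of 2254 protein-coding genes (29.7%) with both means at least 5 were called higher. The lists were chosen with earlier results of these data known. The 25 that did not pass stood at or below 4.42 TPM in Col and 4.58 in es3. The 6 NAC genes of miR164 were all among them.

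The 5 HD-ZIP III genes, which set leaf polarity and vascular pattern, were called higher. PHB (AT2G34710) had 4.08 TPM in Col and 565.1, 500.6, 574.8 and 546.4 in the es3 libraries, and REV (AT5G60690) had 3.40 and 597.7, 478.7, 564.9 and 512.7. In both genes every es3 library lay far above the Col mean, and es3dd stood at 3.90 and 2.35. ATHB15 (AT1G52150) rose from 3.86 to 445.1 ± 36.6 and PHV (AT1G30490) from 4.24 to 304.4 ± 38.9 (SD, n = 4). ATHB8 rose from 0.616 to 758.4 as the authors' means. All 5 share the seed match shown above, and in the authors' deposited table their log2 fold changes ran from 6.12 to 10.13.

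The auxin response factors of miR160 and miR167 were likewise all 5 called higher, over a wide range, and 3 of them passed through the es3 mean only. ARF6 (AT1G30330) rose from 8.14 to 2708 TPM as the authors' means, and ARF8 (AT5G37020) from 5.75 to 318.3, 249.2, 336.3 and 306.8 in the es3 libraries. ARF10 (AT2G28350) rose from 4.03 to 286.4, 255.8, 303.4 and 325.7. ARF16 (AT4G30080) and ARF17 (AT1G77850), whose sites match the same microRNA, reached 11.2 ± 4.75 and 20.1 ± 3.7 (SD, n = 4) from 1.64 and 2.73. Their highest library, at 24.96 TPM, lay below the lowest of ARF10.

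**Figure D2:**
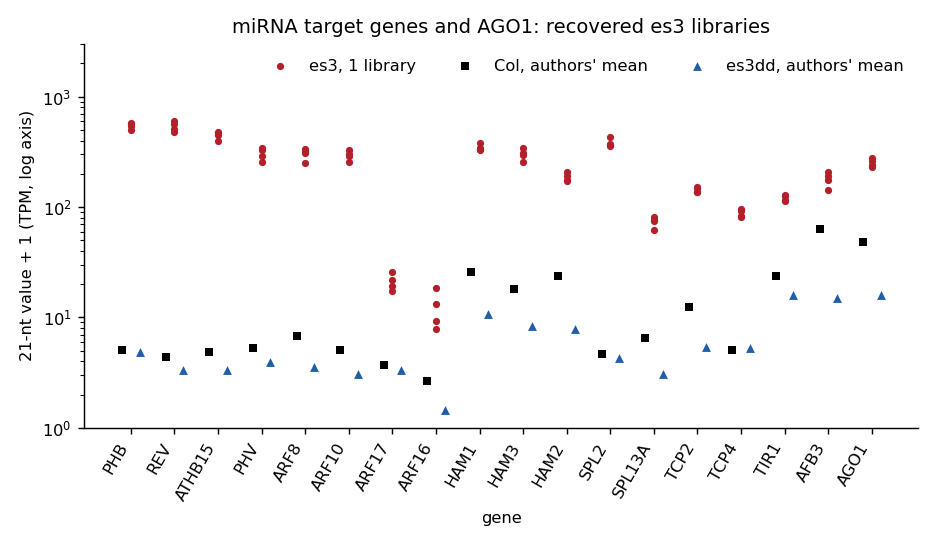
Circles give the 21-nt value plus 1 of each recovered es3 library, squares the authors' Col mean and triangles the authors' es3dd mean, in TPM on a log axis, for recovered genes of 6 microRNA target families and for AGO1. In all 18 genes the 4 circles lie above both other symbols, from a few TPM at ARF16 to far higher values at PHB and REV.

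The GRAS regulators HAM1 (AT2G45160), HAM2 (AT3G60630) and HAM3 (AT4G00150), which keep shoot meristems undifferentiated, already carried 24.7, 22.8 and 17.2 TPM in Col. They rose to 345.4 ± 21.8, 185.2 ± 15.1 and 298.3 ± 36.7 (SD, n = 4). Their sites are identical and fully complementary to miR171a, and the 3 genes still differed in es3, where every library of HAM2 lay below every library of the other two.

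The 7 SPL genes of miR156 that passed, regulators of the change to adult leaves and flowering, were all called higher. Of these, 5 passed through the es3 mean only and had to lie higher. SPL2 (AT5G43270) rose from 3.66 TPM to 429.2, 358.5, 361.5 and 372.4 in the es3 libraries. SPL13A (AT5G50570) and SPL13B (AT5G50670) rose from 5.54 and 5.18 to 72.3 ± 8.4 and 71.7 ± 7.9 (SD, n = 4). These near-identical copies had equal values of 60.3 and 75.8 in libraries A and B, and reads that match both cannot be told apart. The other 4 reached 12.8 to 22.9.

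The TCP genes of miR319, which limit leaf growth, were called higher in 4 of 4 that passed, 3 of them through the es3 mean only. TCP2 (AT4G18390) rose from 11.4 to 142.6 ± 7.9 and TCP4 (AT3G15030) from 4.101 to 87.3 ± 7.0 (SD, n = 4). MYB33 (AT5G06100) and MYB65 (AT3G11440), the anther and seed regulators under miR159, rose from 0.328 and 0 to 40.6 ± 2.9 and 12.9 ± 1.3 (SD, n = 4). The 5 GRF genes of miR396 that passed had 8.65 to 32.4 TPM in es3 and 1.41 or less in Col, and GRF5, at 2354 TPM, is not in that list.

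Among the AP2-like genes of miR172, which delay flowering, TOE1 (AT2G28550) rose from 7.003 to 260.3 ± 9.1 and TOE2 (AT5G60120) from 2.68 to 50.1 ± 10.7 (SD, n = 4), and SNZ was called higher too. AP2 itself had 2.73 and 7.31 TPM and was not called. Of the NF-YA genes of miR169, NF-YA2, NF-YA3 and NF-YA8 were called higher, and NF-YA10, at 3.78 and 5.16, was not.

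All 5 sulfate and phosphate genes that passed were called higher, 2 of them having passed through the es3 mean only. PHO2 (AT2G33770), the miR399 target that restrains phosphate uptake, rose from 12.6 TPM to 333.5, 321.3, 362.3 and 311.7 in the es3 libraries, and APS1 (AT3G22890), the ATP sulfurylase gene under miR395, rose from 23.3 to 610.4 as the authors' means. The copper superoxide dismutase genes CSD1 and CSD2, targets of miR398, were at 12.3 and 17.1 TPM in Col and at 10.105 ± 4.5 and 13.2 ± 3.7 in es3 (SD, n = 4). Neither was called, and both Col means lay inside the range of the es3 libraries. Their median effect of -0.31 turned to 0.59 when centred on MIR loci and to 1.97 when centred on plastid-encoded genes. The other 5 copper protein genes stayed below 5 TPM.

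The TIR1/AFB auxin receptors are targets of miR393, and AFB2 and AFB3 of that family are known sources of secondary siRNAs in the wild type. AFB2 (AT3G26810) had 160.6 TPM in Col and 675.5 in es3 as the authors' means, and AFB3 (AT1G12820) had 61.9 and 178.1 ± 28.0 (SD, n = 4). TIR1 (AT3G62980) rose from 22.6 to 119.8 ± 7.9 (SD, n = 4). AFB1 had 2.37 in Col and 9.01, 0, 7.64 and 5.74 in the es3 libraries, on both sides of Col, and was not called. In es3dd, AFB2 stood at 25.5 and AFB3 at 14.0, below Col. The median effect of the 4 was 1.79 and 0.99 when centred on the nuclear median.

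**Figure D3:**
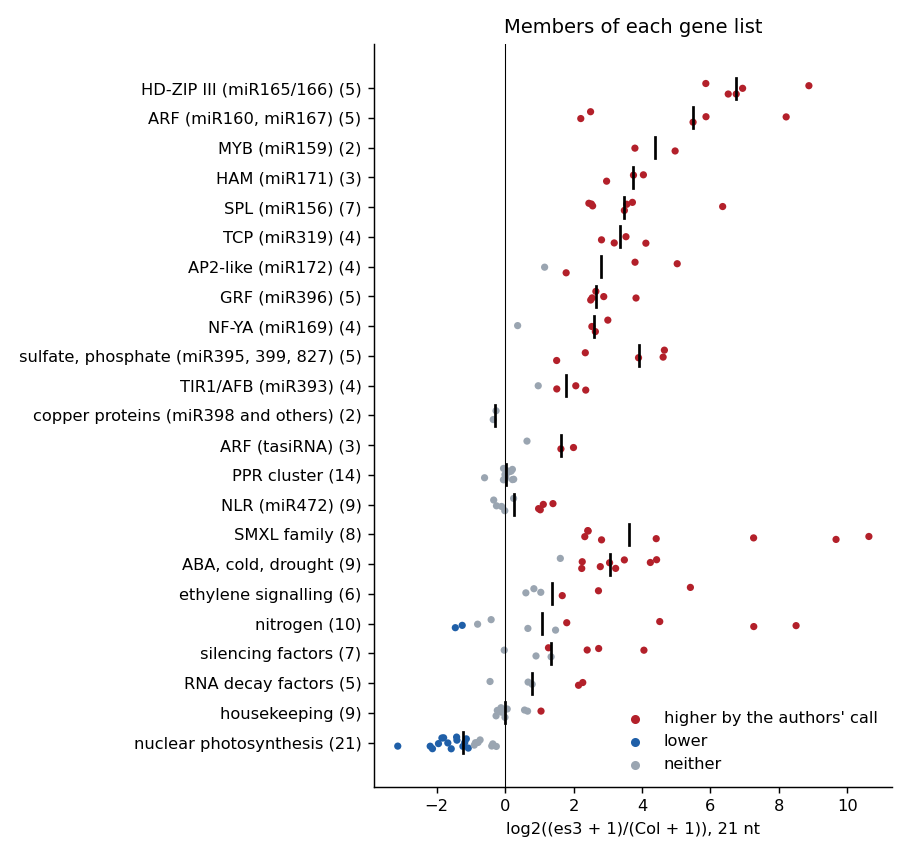
Each point is a gene that passed the minimum, placed by its effect on the horizontal axis in log2 units and coloured by the authors' call, with a black bar at the median of its list and the number of genes in parentheses. Most lists of microRNA targets, SMXL genes and ABA, cold and drought genes lie to the right. The PPR cluster and housekeeping genes lie around zero, and NLR genes on both sides of it with a median of 0.25. Copper protein genes, targets of miR398 and other microRNAs, lie just left of zero, and nuclear photosynthesis genes to the left.

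Loci known to make phased siRNAs in the wild type already had high values in Col. The 14 PPR genes of the chromosome 1 cluster, which encode organelle RNA-binding proteins and are triggered by miR161 and tasiRNAs, had 0 calls in either direction. All 14 had both means at least 5, where 670 of 2254 protein-coding genes (29.7%) were called higher and 184 lower. The median effect of the 14 was 0.04, and -0.76 when centred on the nuclear median. AT1G63080 had 3693 TPM in Col, 3994 in es3 and 15.995 in es3dd, and AT1G63400 had 3052, 3446 and 1.62. At both genes Col and es3 were close and es3dd was far lower, and reads shared among these similar genes cannot be told apart.

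NLR immune receptor genes of the miR472 family had 4 of 9 called higher. All 9 had both means at least 5, where 670 of 2254 protein-coding genes (29.7%) were called higher. AT5G43740 rose from 805.2 to 2124 TPM as the authors' means, and AT1G51480 from 68.1 to 145.6, 150.8, 144.5 and 154.2 in the es3 libraries. The other 5 were not called. The list's median effect of 0.25 became -0.55 when centred on the nuclear median, where none of the 9 stayed at 2-fold or more higher.

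The tasiRNA-targeted factors ARF2, ARF3 and ARF4, which act in leaf polarity and ageing, were called higher in 2 of 3. All 3 had both means at least 5, where 670 of 2254 protein-coding genes (29.7%) were called higher. Centred on the nuclear median, 1 of the 3 stayed at 2-fold or more higher, and the median effect went from 1.63 to 0.83. ARF2 (AT5G62000) rose from 27.3 to 112.1 ± 9.1 TPM and ARF3 (AT2G33860) from 7.201 to 24.4 ± 4.0 (SD, n = 4). ARF4 (AT5G60450) had 65.05 in Col and 104.0, 79.4, 109.3 and 114.8 in the es3 libraries. All 4 of those lay above Col, and in the authors' deposited table the log2 fold change of 0.64 had an adjusted p of 9.3e-04, short of the 2-fold call.

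The SMXL family, repressors of strigolactone and karrikin responses and regulators of phloem, was called higher in 8 of 8. Of these, 5 passed through the es3 mean only and had to lie higher in es3. The 3 with both means at least 5 were called higher, where 29.7% of such protein-coding genes were. Besides SMXL4 and SMXL5, SMXL7 (AT2G29970) rose from 9.94 to 1677 TPM as the authors' means and SMAX1 (AT5G57710) from 11.9 to 63.7 ± 12.96 (SD, n = 4). SMXL3 (AT3G52490), the third phloem member, was listed at 0 in Col and stood at 19.4, 24.8, 19.1 and 18.0 in the es3 libraries. The list holds genes the study had picked from such libraries, so its count is no independent support.

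Of 9 ABA, cold and drought genes that passed, 8 were called higher, against 50.0% of protein-coding genes, but 7 of the 9 passed through the es3 mean only and had to lie higher in es3. The dehydrin genes ERD10 (AT1G20450), ERD14 (AT1G76180) and COR47 (AT1G20440), which protect cells against water loss, rose from 7.71, 11.9 and 4.54 TPM to 186.3 ± 34.9, 242.8 ± 12.2 and 51.0 ± 3.2 (SD, n = 4). ABI1 (AT4G26080), a phosphatase that restrains ABA signalling, rose from 2.66 to 36.1, 41.5, 42.8 and 39.4 in the es3 libraries.

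In ethylene signalling, EBF1 (AT2G25490) and EBF2 (AT5G25350), F-box genes whose mRNAs are known to depend on EIN5, rose from 15.1 to 683.8 TPM as the authors' means and from 3.95 to 31.8 ± 7.5 (SD, n = 4). EIL1 was called higher, from 6.201 to 21.9 ± 4.6 (SD, n = 4), while EIN2, EIN3 and ERS1 were not called. The list had 3 of 6 called higher, the same share as the 50.0% of all protein-coding genes, and 2 of the 6 passed through the es3 mean only. Of the 4 with both means at least 5, 2 were called higher, where 29.7% of such protein-coding genes were.

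Within the silencing machinery, 4 of the 7 genes that passed were called higher, near the 50.0% of all protein-coding genes, and 4 of the 7 passed through the es3 mean only. AGO1 (AT1G48410), the effector of microRNAs and itself a miR168 target, had 47.0 TPM in Col and 261.4, 238.3, 279.0 and 230.5 in the es3 libraries. AGO7 (AT1G69440), which binds miR390 in tasiRNA formation, rose from 0.360 to 21.6 ± 7.1, and RDR6 from 0.359 to 8.04 ± 2.90 (SD, n = 4). DCL1 (AT1G01040), a target of miR162, rose from 30.2 to 74.1 ± 9.0 (SD, n = 4). AGO2 had 94.0 in Col, 92.3 ± 12.2 (SD, n = 4) in es3 and 98.9 in es3dd, with the Col mean inside the range of the es3 libraries. DCL4 and DCL2 had 3.21 and 1.23 TPM in Col and 6.87 ± 2.32 and 4.04 ± 2.13 (SD, n = 4) in es3, and neither was called.

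Of 17 RNA decay factors, 5 passed, 3 of them through the es3 mean only. A count of 2 called higher was no larger a share than the 50.0% of all protein-coding genes, and LSM1B and SOV were called higher at 6.38 ± 4.04 and 10.3 ± 1.8 TPM (SD, n = 4). Their median effect of 0.79 became -0.01 when centred on the nuclear median. DCP5, a decapping factor, had 6.82 in Col and 13.9, 5.83, 12.99 and 13.1 in the es3 libraries, so that library B lay below Col and the others above it.

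Nitrogen genes went in both directions, with 4 of 10 called higher and 2 lower, where 50.0% of protein-coding genes were called higher and 5.10% lower. All of these calls fell among the 9 genes with both means at least 5. Of 2254 such protein-coding genes, 670 (29.7%) were called higher and 184 lower. NIA1 (AT1G77760), the second nitrate reductase, rose from 11.96 to 1992 TPM as the authors' means, and GLT1 (AT5G53460), the NADH-dependent glutamate synthase, from 18.2 to 439.6 ± 63.3 (SD, n = 4). NIR1 (AT2G15620), nitrite reductase, rose from 8.19 to 31.0 ± 6.8 (SD, n = 4). The chloroplast glutamine synthetase gene GS2 (AT5G35630) fell from 80.9 to 28.9 ± 9.95 and GLN1;2 (AT1G66200) from 31.2 to 12.5 ± 0.7 (SD, n = 4). Both nitrate reductase genes were singled out by the study from such libraries. The falls of GS2 and GLN1;2 turned to gains when centred on plastid-encoded genes.

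The share of genes called higher fell with the number of exons. Among protein-coding genes whose longest annotated transcript has 1 exon, 1072 of 1467 (73.1%) were called higher, against 57.4% with 2 exons, 45.0% with 3 to 5, 37.7% with 6 to 10 and 32.5% with more than 10. Among genes with both means at least 5, the shares were 51.3%, 34.8%, 24.7%, 20.8% and 21.5%. Of the 131 genes called at 64-fold or more, all protein-coding, 72 (55.0%) had a single exon, where 22.2% of all protein-coding genes that passed did.

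**Figure D4:**
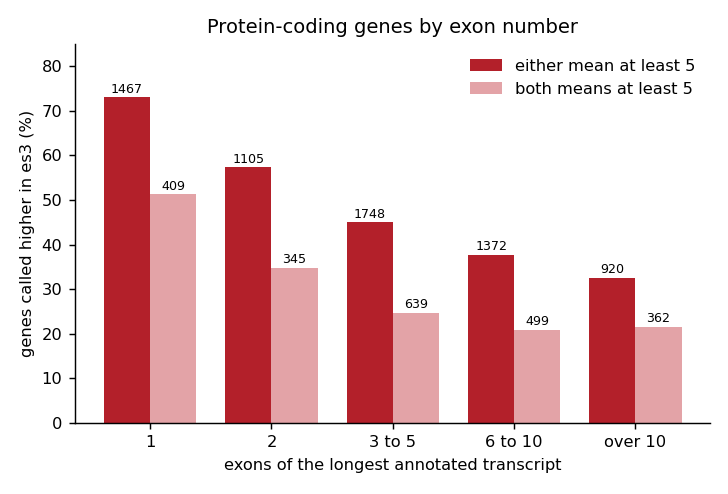
Bars give the percentage of protein-coding genes called higher in es3 by the number of exons in the longest annotated transcript, for genes with either mean at least 5 TPM (dark) and for those with both means at least 5 (light), with the number of genes above each bar. Dark bars fall from 73.1% at 1 exon to 32.5% above 10, and light bars from 51.3% to 21.5%.

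The higher share in single-exon genes was also found within classes of transcript length, among genes with either mean at least 5. Of the 1467 single-exon genes, 409 had both means at least 5. The median Col mean of the 1467 was 2.62 TPM, so most passed through the es3 mean only and had to lie higher. The length classes were not repeated with both means at least 5. In the class of genes with the shortest transcripts, up to 1334 bases, 65.3% of single-exon genes and 27.9% of the others were called higher. In the next of 4 equal classes the shares were 83.6% and 43.3%, then 77.3% and 49.0%, and 66.4% and 49.1% in the longest. The median transcript was 1907 bases in genes called higher and 1351 in those called lower, and the GC content was 41.5% and 42.2%. A site with at most 3 mismatches to any of 350 mature microRNA sequences was found in 15.8% of genes called higher, 9.20% of those called lower and 14.0% of all. These are descriptions of the annotation, and no test was made.

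MIR loci lost 21-nt RNAs on the authors' scaling, a direction that turned when centred on plastid-encoded genes. Among families with at least 2 loci that passed, all loci were called lower in MIR160, MIR319, MIR390, MIR167, MIR166, MIR171, MIR172, MIR159 and MIR158. The 7 MIR166 loci, which all encode the mature sequence shown above, had a summed mean of 35784 TPM in Col and 13581 in es3. Reads of identical mature sequences cannot be told apart between loci, and the rule for such reads is not given in the sources used here. In contrast, 0 of 6 MIR156 loci, 0 of 4 MIR157 loci and 0 of 2 MIR168 loci were called lower.

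**Figure D5:**
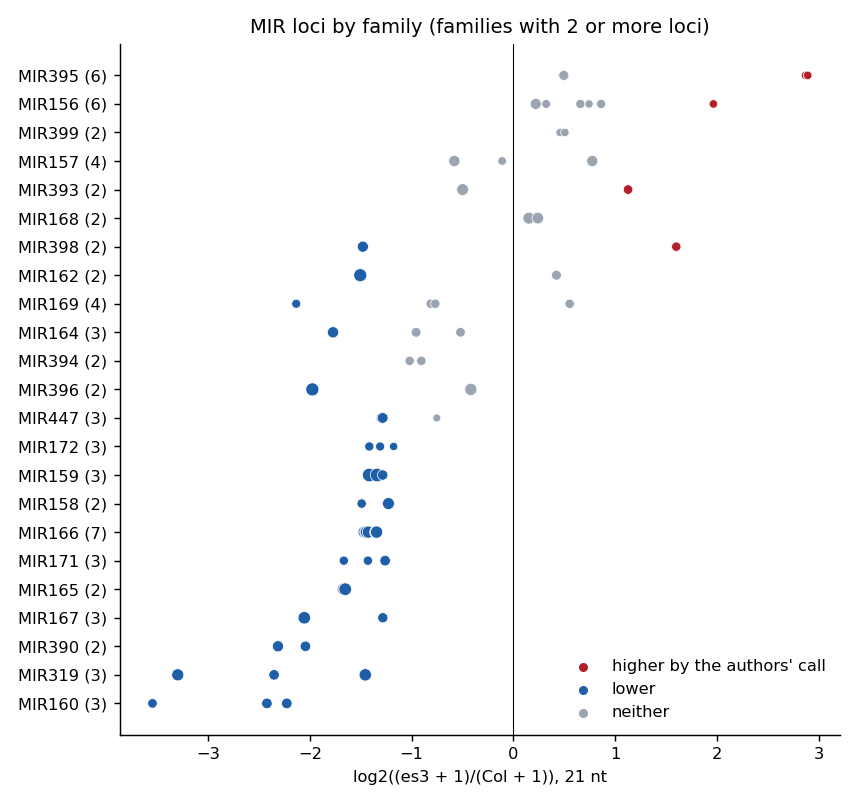
Each point is a MIR locus in a family with at least 2 loci that passed, placed by its effect in log2 units, coloured by the authors' call and sized by the logarithm of its Col mean, with the number of loci in parentheses. Families MIR160, MIR319, MIR390 and MIR167 lie farthest to the left, and the MIR395 and MIR156 loci to the right of zero.

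Among the largest falls were microRNAs that regulate auxin response factors, TCP genes and tasiRNA formation. MIR160b (AT4G17788) fell from 58.4 TPM in Col to 6.93, 1.46, 3.82 and 4.102 in the es3 libraries, while es3dd had 185.6. MIR160a (AT2G39175) and MIR160c (AT5G46845) fell from 277.3 and 298.6 to 50.9 ± 26.1 and 63.0 ± 25.1 (SD, n = 4). MIR390a (AT2G38325), whose product primes tasiRNA formation, fell from 791.0 to 172.0, 134.8, 162.8 and 163.3. All es3 libraries lay below Col at these loci.

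MIR319b (AT5G41663) fell from 4366 TPM to 724.6, 94.7, 771.2 and 179.7, with the highest library far above the lowest. MIR319c (AT2G40805) fell from 255.1 to 61.0, 24.05, 68.8 and 42.7. Libraries A and C lay above B and D at both, as at MIR160a. The same order was found at 21 of 52 recovered MIR loci with an es3 mean of at least 20 (40.4%), at 28.2% of protein-coding genes and at 16.05% of pseudogenes. The libraries differed by more than 2-fold at 9 of the 52 MIR loci (17.3%) and at 5.09% of protein-coding genes, and the part of this spread in the calls was not tested.

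MIR163 (AT1G66725), whose mature product is 24 nt long in the annotation, fell from 1187 TPM to 183.5 ± 34.2 (SD, n = 4) among 21-nt reads. MIR838 (AT1G01046) fell from 41.5 to 4.37 ± 2.52 (SD, n = 4). It lies within DCL1 on the same strand, where DCL1 itself rose, so reads at this place could be counted for either. The low loci MIR836 and MIR851 fell from 5.44 and 5.105 TPM to 0 reads in all 4 libraries and to 1 read in library D. For MIR836 that is at least 9.68-fold lower set against 3 reads in the group as a floor, which covers counting error only.

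The 10 MIR loci called higher were named after their values had been seen. MIR845a (AT4G23387) rose from 330.0 to 3211 TPM as the authors' means, with 2004 in es3dd. MIR395a, MIR395d and MIR395e, which encode 1 mature sequence that targets sulfate genes, each rose from 12.7 TPM, with libraries of MIR395a at 86.7, 104.2, 116.2 and 96.8. MIR156f, MIR398a, MIR866, MIR843, MIR393a and MIR849 made up the rest, and MIR849 fell short of 2-fold without library B or D. Mature sequences of MIR845a, MIR395a and of the MIR319 and MIR390 families are given here with the seed in capitals.
ath-miR845a (chr4:12217457-12217477, minus strand): cGGCTCTGataccaattgatg
ath-miR395a (chr1:9363206-9363226, minus strand, shared by 3 loci): cTGAAGTGtttgggggaactc
ath-miR319a (chr4:12353109-12353129, plus strand, shared by 2 loci): tTGGACTGaagggagctccct
ath-miR319c (chr2:17029870-17029890, plus strand): tTGGACTGaagggagctcctt
ath-miR390a-5p (chr2:16061971-16061991, plus strand, shared by 2 loci): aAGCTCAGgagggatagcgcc
The miR319 sequences share a seed, miR319a and miR319b are the same letters, and miR319c differs from them near its 3′ end.

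Photosynthesis genes lost 21-nt RNAs on the authors' scaling. Of 21 nuclear photosynthesis genes, 14 were called lower and 0 higher. All 21 had both means at least 5, where 184 of 2254 protein-coding genes were called lower. Their median effect was -1.23 for the 21 genes, which was -0.34 when centred on MIR loci and turned to 1.04 when centred on plastid-encoded genes. RCA (AT2G39730), Rubisco activase, fell from 780.5 TPM to 83.2, 87.4, 94.8 and 86.1 in the es3 libraries, with 200.5 in es3dd. RBCS3B (AT5G38410), a Rubisco small subunit, fell from 644.2 to 140.6 ± 13.8, and GAPB (AT1G42970), a Calvin cycle enzyme, from 140.7 to 31.5 ± 7.1 (SD, n = 4). The chlorophyll-binding genes CAB1, CAB2 and CAB3 went from 1028, 831.1 and 781.8 to 860.7, 633.9 and 609.2 as the authors' means, and were not called. The RBCS and CAB copies are nearly identical, and reads that match several copies cannot be told apart.

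Plastid-encoded genes moved with these values, with 84 of 87 called lower and a median effect of -2.28. Mitochondrion-encoded genes had 26 of 70 called lower and 0 higher. The nuclear gene AT2G07732, annotated as a Rubisco large chain domain protein, fell from 1214 TPM to 147.4 ± 4.4 (SD, n = 4), an effect of -3.03, beside -3.02 at the plastid gene for the large chain (ATCG00490). Reads shared between these copies cannot be told apart, and the part of plastid RNA in the nuclear losses was not tested.

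The largest negative effect among the 8743 genes was at the uncharacterized gene AT2G01021 (chr2:6571-6672), which had 14317 TPM in Col and 0 reads in all 4 es3 libraries and was also listed at 0 in es3dd. This is at least 25494-fold lower against the floor of 3 reads over the group. At 22 nt it stood at 15030 in Col and was listed at 0 in both mutants. The gene lies next to ribosomal RNA genes (AT2G01010 and AT2G01020) that were not analysed here, and it held 2.35% of the summed Col value. Genotype and differences in making or processing the Col libraries cannot be told apart here.

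Among the other losses, the uncharacterized pseudogene AT5G39205 and the terpenoid cyclase-like gene AT1G70080 fell from 8.31 and 6.66 TPM to 0 reads in all 4 libraries, at least 14.8-fold and 11.9-fold lower. AT5G66530, a galactose mutarotase-like gene, fell from 258.6 to 29.9 ± 3.5 (SD, n = 4). The transcribed pseudogenes AT3G22232, AT3G22234 and AT3G22237, which lie close together on chromosome 3, fell from 59.98, 34.1 and 109.2 to 6.47 ± 2.93, 4.11 ± 1.92 and 12.5 ± 2.9 (SD, n = 4). CHX18 (AT5G41610), a cation exchanger gene, fell from 15.95 to 1.29 ± 1.19 (SD, n = 4), or 0.802 without library A, and had 0.672 in es3dd. Unlike the gains, few losses were large, with 150 of the 544 at 4-fold or more and 35 at 8-fold or more in the authors' deposited table.

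Housekeeping genes had effects around zero. UBQ10 (AT4G05320) had 128.5 TPM in Col and 142.2, 121.7, 116.9 and 132.1 in the es3 libraries, which lie on both sides of Col, and es3dd had 47.4. Of the 9 that passed, ACT2 was called higher, from 23.5 to 49.7 ± 7.2 (SD, n = 4), and fell short of 2-fold without library B. The effects of the others ran from -0.26 to 0.66. The minimum of 5 itself is narrow, with AT1G54820 just inside at 5.0006 TPM in Col and PP2AA2 just outside at 4.999.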

How the data were processed

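The authors deposited 1 table of 21-nt and 22-nt small RNAs per gene. Its TPM columns are the authors' means per genotype, per the file headers. They are not divided by gene length, and their denominator is not given in the sources used here. The authors' log2 fold changes, p-values and adjusted p-values for es3 over Col were taken from the deposited table. Bowtie 1.2.2, SAMtools 1.9, DESeq2 and TAIR10 are named per the submitters' processing notes, without their roles. Multi-mapping and strand rules are not given in the sources used here. The labels call the libraries replicates without naming separate cultures, so spreads may be technical.

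Low es3 means are sums of whole multiples of 4 steps, each the worth of 1 read of 1 library. Means up to 600 TPM were matched to whole reads at a relative tolerance of 5e-15. Of 25299 means, 25299 had a single match. As a control, the same means were each shifted by a small random relative amount far over the tolerance. Of these 25299 shifted values, 3 matched, all above 300 (3 of 64 there). On simulated data 2943 of 2943 were recovered exactly. The 88 nuclear genes above the reach carry only the authors' mean. Recovered libraries have no replicate number, and means ± SD are over the 4 of them. Intervals and floors cover counting error only.

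Named genes are the 10 called genes with the largest gain, the 10 MIR loci and 10 other genes with the largest loss, the 10 non-MIR genes highest in es3, and the members of 25 lists holding 222 genes. Of these, the genes that the results turn on are described, and the rest enter as counts and ranges. The members and lists were chosen with earlier results of these data known. No new test against Col was possible, so calls are the authors'. Annotation was read from RefSeq TAIR10.1, and 31722 of 32210 nuclear genes matched. Python 3.11.15, pandas 2.3.3, numba 0.67.0 and pysam 0.24.0 were used. Other per-sample columns not used numbered 0.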

Additional observations from a re-analysis of the deposited data

Results flagged for a closer look

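In 3 of 150 groups of 4 es3 libraries tested, 1 library lay apart from the others, where chance gives about 1 in 20. MIR851 had 0.820 TPM in library D, which is 1 read, and 0 in the others. DCP5 had 5.83 TPM in library B and 12.99 to 13.9 in the others. SMXL2 had 27.7 TPM in library A and 16.4 to 18.3 in the others, all above the Col mean of 1.95.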

How the results depend on the processing

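Requiring both means to be at least 5, chosen after seeing the data, left 698 genes called higher and 302 lower in the authors' deposited table, with a median effect of 0.0016. In that table, an adjusted p below 0.01 left 361 called lower, and a log2 fold change of at least 2 left 150. At 2-fold, a minimum of 10 gave 2333 higher and 374 lower with a median of 0.95, and a minimum of 1 gave 7633 and 1043 with a median of 0.64. A pseudocount of 5 gave 251 lower and a median of 0.52, and one of 0.5 a median of 0.87. Centring gave 2606 higher, 2325 lower and a median of 0.00 (nuclear genes), 97 lower and 1.70 (MIR loci), or 8369 higher, 3 lower and 3.08 (plastid-encoded genes). Leaving out each library in turn held genes above 600 TPM at their mean, and kept the authors' adjusted p and the genes included. It gave 3359 to 3365 called higher, 529 to 537 called lower, 4001 to 4065 at 2-fold higher, 641 to 658 lower and medians of 0.79 to 0.82. The counts of calls could move only through the fold change, so their steadiness is partly built in. Among 219 genes checked, MIR851 (0 TPM without library D) and CHX18 (0.802 without A) moved by over 1.5 times. List medians turned for RNA decay factors (-0.011) and NLR genes (-0.55) when centred on nuclear genes, and for photosynthesis genes (1.04) and MIR loci (1.38) when centred on plastid-encoded genes. The latter also turned MIR160c (0.047), GLN1;2 (1.02), GS2 (0.82), RBCS1A (0.87), RBCS1B (0.33), RBCS2B (0.70), RBCS3B (0.087), LHCB2.1 (1.199), LHCB3 (1.095), LHCB4.1 (0.86), LHCB6 (1.14), LHCA1 (0.48), LHCA3 (1.04), PSBO1 (0.60), GAPA (0.43) and GAPB (0.15). The centrings shift every gene alike by construction. Among named genes, with the authors' adjusted p kept, the alternatives gave 43 values that lost a call and 13 that gained one. No paired analysis was possible because the es3 libraries read from the mean have no numbers and Col is given as a mean. The worth of 1 read, 0.693 to 0.820 TPM, limits what can be said of genes near the minimum.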

Other observations

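The median effect by chromosome was 0.93 on chromosomes 1 and 5, 0.86 on 4, 0.79 on 3 and 0.48 on 2. Genes with at least 100 TPM numbered 103 in Col, 314 in es3 and 43 in es3dd among the protein-coding genes that passed. The uncharacterized gene AT3G06435 had 4993 TPM in Col and 1883 in es3.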
